A study of Bos taurus with 12 samples.

Results

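Toll-like receptors are the sensors by which a tissue recognises conserved molecules of bacteria and viruses. TLR2, which pairs with TLR1 or TLR6, binds bacterial lipoproteins, and TLR4 binds lipopolysaccharide together with LY96 and with the help of CD14, a glycoprotein abundant on monocytes and macrophages that hands the ligand over. TLR3 and TLR7 lie in endosomes and recognise double-stranded and single-stranded RNA. All of these receptors except TLR3 signal through the adaptor MYD88, which leads to NF-kappa-B and to the release of cytokines and chemokines, whereas TLR3 uses the adaptor TICAM1. In the endometrium, the inner lining of the uterus, these receptors are known from epithelial cells, stromal cells and resident leukocytes.

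The members of this gene family were chosen by symbol: all probe sets that the platform annotation names TLR1, TLR2, TLR3, TLR4, TLR6, TLR7, CD14, LY96 or MYD88. These were 9 of 24016 probe sets, and they measured 6 of the 9 genes. TLR3 had 3 probe sets, CD14 had 2, and TLR2, TLR4, TLR6 and MYD88 had 1 each. They are called here TLR3 probe sets A, B and C and CD14 probe sets A and B. TLR1, TLR7 and LY96 had none that carries their name. In the platform annotation TLR3 probe sets B and C come from the same source sequence, so they are not independent measurements. The RefSeq gene table of the assembly ARS-UCD2.0 gives TLR1 as a synonym of TLR6 and lets TLR6 overlap with TLR10. The signal of the TLR6 probe set may therefore be shared with its relatives. The same RefSeq annotation lets TLR2 overlap with RNF175 and TLR3 with a locus that has no gene name. Whether the TLR2 and TLR3 probe sets share signal with these was not tested.

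The endometrium came from Simmental heifers, with no treatment named in the labels. Non-receptive and receptive endometrium was sampled on day 3 and on day 7 of the estrous cycle, and receptivity was assigned from pregnancy after transfer of embryos produced in vivo. Each of the 4 groups held 3 RNA pools on 1 Affymetrix bovine array each. Age, the number of animals behind each pool and whether pools share animals are not in the labels, so p-values measure the spread between pools, which may be technical. Values are log2 signals as deposited, so that a difference of 1 is a doubling, and array medians lay between 6.64 and 6.76. No member had a value at the floor of 0, and no 2 arrays held identical values. Most markers of epithelium had high signals. Of 7 measured genes, EPCAM, KRT18, KRT19, CDH1 and MUC1 had mean log2 signals between 11.26 and 13.10 on day 3. KRT8 lay below this range, and SERPINA14 was the one gene of the list with pools at 0. These markers do not by themselves identify the tissue as endometrium.

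TLR3 and CD14 changed in opposite directions between the days, each in part of its probe sets. TLR3 transcripts fell from day 3 to day 7, by 0.52 on the log2 scale in 2 of 3 probe sets, and CD14 rose by 0.89 in 1 of 2 probe sets. The changes of TLR2, TLR4, TLR6 and MYD88 did not pass the test. Of the 9 probe sets 1 rose and 2 fell when day 7 was compared with day 3 over both receptivity groups, which is 3 of 9 called, beside 14.2% of all probe sets (4.76% higher and 9.44% lower). The count was between 1 and 4 with 1 pool left out, and 1, TLR3 probe set A, without pool 1 or 2 of non-receptive day 3, pool 3 of receptive day 3, pool 1 or 3 of non-receptive day 7, or pool 1 of receptive day 7. The share of higher calls among all probe sets was 33.5%, against 44.1% after quantile normalization and 50.6% after median centring. The median change of the 9 member probe sets was 0.35, with 6 positive, beside a median of -0.05 and 43.4% positive over all probe sets. No member had values that separated all 6 pools of day 3 from all 6 pools of day 7, as 7.72% of all probe sets did.

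Probe set A of TLR3, the endosomal receptor of double-stranded RNA, had the one day change among the members that was called in all alternatives run. The non-receptive pools of day 3 had log2 signals of 5.95, 5.95 and 5.75, and the receptive pools of day 3 had 5.44, 5.88 and 5.77. On day 7 the values were 5.16, 5.36 and 5.10 in non-receptive and 5.34, 5.52 and 5.15 in receptive pools. Only the lowest pool of day 3 and the highest pool of day 7, both receptive, crossed. The mean fell from 5.79 ± 0.19 to 5.27 ± 0.16 (SD, n = 6), a log2 difference of -0.52 ± 0.10 (SE, adjusted p = 0.0125) or 1.43-fold lower on day 7. This call was kept in all 21 alternatives, with adjusted p between 0.00373 and 0.0375. The signal was weak: all values of the TLR3 probe sets A, B and C lay below the array medians (6.64 to 6.76). With an offset of 16 on the linear scale the limma difference of probe set A was -0.39 (adjusted p = 0.0109). The day accounted for 71.9% of the sum of squares of this probe set and receptivity for 0.215%.

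TLR3 probe set B went the same way. Its log2 signals on day 3 were 6.06, 6.47 and 5.75 in non-receptive and 5.58, 5.89 and 5.63 in receptive pools, and on day 7 they were 5.51, 5.47 and 5.59 in non-receptive and 5.05, 5.17 and 5.50 in receptive pools. Within each receptivity group the days did not overlap. The mean fell from 5.90 ± 0.33 to 5.38 ± 0.22 (SD, n = 6), a log2 difference of -0.52 ± 0.13 (SE, adjusted p = 0.0307). This call was lost in 9 of 21 alternatives, each time with 1 pool left out (highest adjusted p = 0.0663, without non-receptive day 3 pool 1). It was also lost without pool 2 of non-receptive day 3, pool 2 or 3 of receptive day 3, any pool of non-receptive day 7, or pool 1 or 2 of receptive day 7, with adjusted p from 0.0511 to 0.0658, and with 1 pool left out the difference stayed between -0.60 and -0.42.

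TLR3 probe set C varied more between pools and its day change did not pass. It had log2 signals of 6.49, 6.42 and 5.83 in non-receptive and 5.08, 5.71 and 5.87 in receptive pools on day 3, and of 5.83, 5.47 and 6.27 in non-receptive and 4.77, 5.41 and 5.51 in receptive pools on day 7. The log2 difference between the days was -0.36 ± 0.21 (SE, adjusted p = 0.293), with a 95% confidence interval from -0.83 to 0.12. Here the receptivity groups lay farther apart than the days, with means of 6.05 ± 0.40 in non-receptive and 5.39 ± 0.41 in receptive pools (SD, n = 6). Receptivity accounted for 44.3% of its sum of squares and the day for 13.0%.

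**Figure D1:**
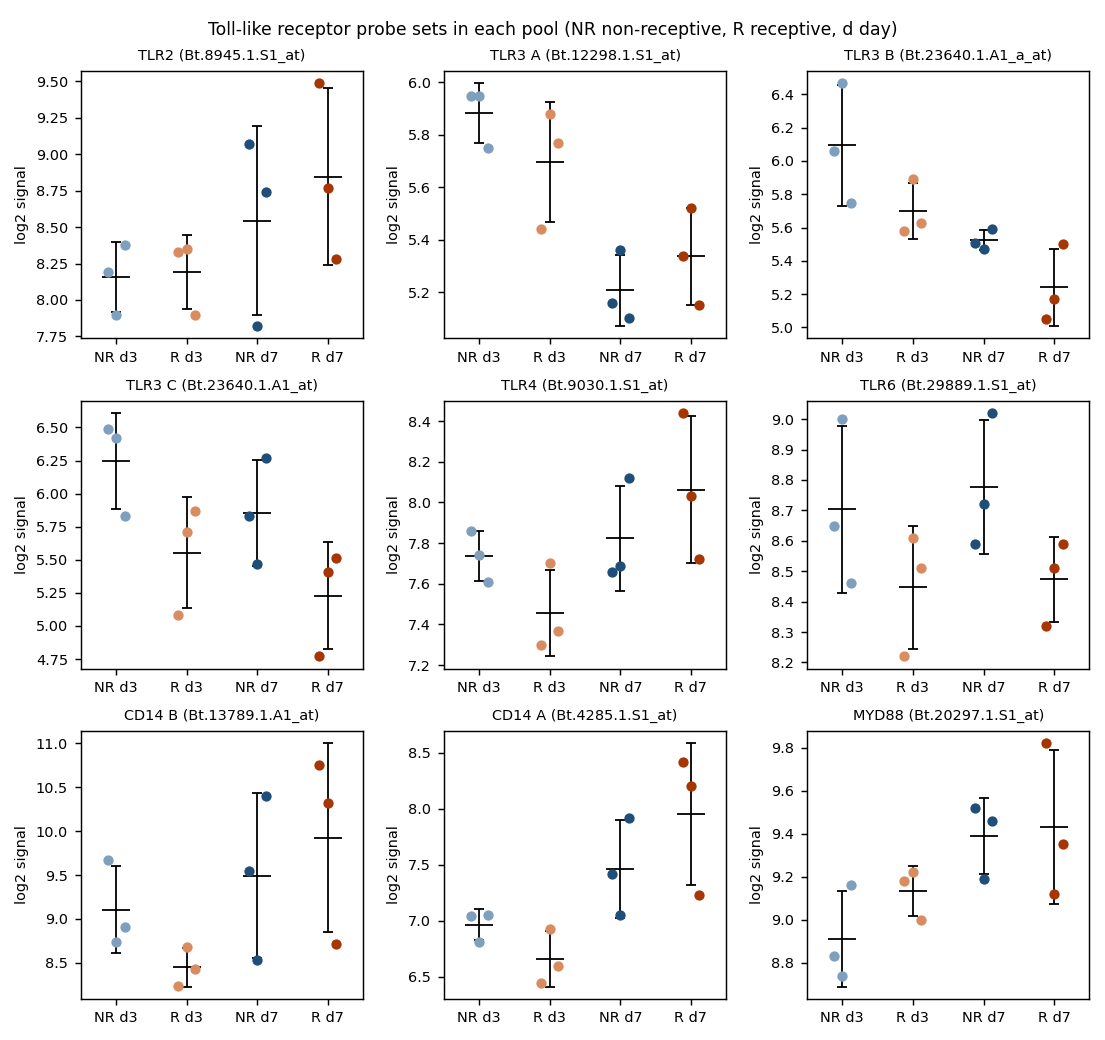
Log2 signal (y axis, a separate range for each panel) of the 9 probe sets in each pool (points) by group (x axis: NR non-receptive, R receptive, d3 day 3, d7 day 7), with mean and SD of 3 pools. TLR3 (probe set A) lay between 5.44 and 5.95 on day 3 and between 5.10 and 5.52 on day 7, and CD14 (probe set A) between 6.45 and 7.05 on day 3 and between 7.05 and 8.42 on day 7.

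CD14, the co-receptor of TLR4 and TLR2, was more abundant on day 7. With probe set A, day 3 pools had log2 signals of 7.04, 6.81 and 7.05 in non-receptive and 6.45, 6.93 and 6.60 in receptive endometrium. On day 7 the values were 7.42, 7.05 and 7.92 in non-receptive and 8.42, 8.20 and 7.23 in receptive endometrium. The days met at a single value, 7.05, the highest pool of day 3 and the lowest of day 7. The mean went from 6.81 ± 0.24 up to 7.71 ± 0.55 (SD, n = 6), a log2 difference of 0.89 ± 0.22 (SE, adjusted p = 0.026) or 1.86-fold. The order of the group means was receptive day 3 (6.66 ± 0.25), non-receptive day 3 (6.97 ± 0.14), non-receptive day 7 (7.46 ± 0.44) and receptive day 7 (7.95 ± 0.63; SD, n = 3 each), and no neighbours in this order differed past the test (adjusted p of 0.956, 0.4 and 0.828).

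The CD14 call depended on single pools. It was lost in 10 of 21 alternatives, of which 8 left out 1 pool: pool 1 or 2 of non-receptive day 3, pool 1 or 3 of receptive day 3, pool 1 or 3 of non-receptive day 7, or pool 1 or 2 of receptive day 7 (adjusted p from 0.0511 to 0.0599). The other two were the pool number as a block (adjusted p = 0.0507) and the actin 3' to 5' gap as a covariate (adjusted p = 0.0698). The log2 difference stayed between 0.78 and 1.07 in all 21. CD14 probe set B had a change of like size with a wider spread. Its log2 signals were 9.67, 8.74 and 8.91 in non-receptive and 8.24, 8.68 and 8.43 in receptive pools on day 3, and 9.55, 8.53 and 10.40 in non-receptive and 10.75, 10.32 and 8.71 in receptive pools on day 7. Its difference of 0.93 ± 0.40 (SE) did not pass (adjusted p = 0.147).

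Of 9 measured markers of macrophages and monocytes 2 rose by day 7, 0 fell and 7 did not pass, beside 4.76% higher and 9.44% lower among all probe sets, and their part in the rise of CD14 was not tested. These were CD68, a lysosomal protein of macrophages (log2 difference 2.17 ± 0.42, SE, adjusted p = 0.0103), and CYBB, the catalytic subunit of the phagocyte oxidase (1.1 ± 0.28, SE, adjusted p = 0.0302). The macrophage receptor CSF1R was at -0.53 (adjusted p = 0.233). The summed signal of the 9 markers was, on the log2 scale, between 9.63 and 10.29 in non-receptive and between 9.83 and 9.96 in receptive pools of day 3, and between 9.64 and 11.41 in non-receptive and between 9.98 and 11.32 in receptive pools of day 7. The integrin ITGAM was the one marker at 0, in 1 pool. The 3 pools with the highest CD14 in both probe sets also had the highest summed marker signals. These were pools 1 and 2 of receptive day 7 (11.06 and 11.32) and pool 3 of non-receptive day 7 (11.41). Pool 2 of non-receptive day 7 was the lowest of that day in both CD14 probe sets and in the sum (9.64). On day 3 the order differed. Non-receptive pool 2 had the highest sum of day 3 (10.29) and the lowest CD14 of its group (6.81 with A, 8.74 with B). Non-receptive pool 3 had the lowest sum of all pools (9.63), with the highest CD14 probe set A signal of day 3 (7.05). Receptive pool 2 had the lowest sum of its group (9.83) and its highest CD14 (6.93 with A, 8.68 with B).

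Markers of other cells moved with the day as well, again beside 4.76% of all probe sets higher and 9.44% lower. Of 8 measured neutrophil markers 3 rose and 0 fell (S100A8, S100A9 and S100A12). The other 5, CXCR1, MPO, ELANE, LTF and CAMP, did not pass, and 6 of the 8 differences were positive. The summed log2 signal was 13.88 to 14.02 on day 3 and 14.17 to 14.80 on day 7, and CAMP was at 0 in 2 pools. In the opposite direction, 4 of 12 T and NK cell markers fell and 0 rose, with a summed log2 signal of 9.84 to 10.27 on day 3 and of 9.36 to 9.74 on day 7, and none of them was at 0. Of 9 stromal fibroblast markers 2 fell and 0 rose (11.67 to 14.36 on day 3 and 11.35 to 12.92 on day 7). Of 6 endothelial markers 2 fell, CDH5 and TEK, and 0 rose (7.91 to 8.52 on day 3 and 7.38 to 7.95 on day 7). Of 4 steroid receptors and patterning factors of the endometrium 2 fell, HOXA10 and ESR1, and 0 rose (12.15 to 12.66 and 11.69 to 12.16). Of 3 B cell markers 1 fell, and of 4 red cell markers 1 rose and 1 fell.

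The keratins of squamous epithelium were the one marker list of which all measured genes rose, 4 of 4, with a median log2 difference of 2.29 beside -0.05 over all probe sets. These were KRT5 (3.42, adjusted p = 0.00582), KRT17 (2.37, adjusted p = 0.00224), KRT15 (2.22, adjusted p = 0.00977) and KRT14 (0.74, adjusted p = 0.0158). Their summed log2 signal was 7.85 to 8.59 on day 3 and 8.98 to 11.46 on day 7, so that the days did not overlap, and none of them was at 0. Of the 7 uterine epithelial markers 1 rose and 0 fell, with a summed log2 signal between 14.40 and 14.73 on day 3 and between 14.37 and 14.89 on day 7. The part of these cell types in the changes of TLR3 and CD14 was not tested, and in a bulk RNA pool fewer cells of a type and less RNA per cell cannot be told apart.

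The surface receptors TLR2 and TLR4 and the adaptor MYD88 had positive day changes that did not pass. TLR4, the lipopolysaccharide receptor, had log2 signals of 7.86, 7.74 and 7.61 in non-receptive and 7.30, 7.70 and 7.37 in receptive pools on day 3, and of 7.66, 7.69 and 8.12 in non-receptive and 8.44, 8.03 and 7.72 in receptive pools on day 7. Within receptive endometrium all 3 pools of day 7 lay above all 3 of day 3, while the non-receptive pools overlapped. The difference over both groups was 0.35 ± 0.14 (SE, adjusted p = 0.133), with a 95% confidence interval from 0.03 to 0.67 and adjusted p between 0.0716 and 0.293 in 21 alternatives.

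TLR2, the lipoprotein receptor, had log2 signals of 8.19, 7.90 and 8.38 in non-receptive and 8.33, 8.35 and 7.90 in receptive pools on day 3. On day 7 they were 9.07, 7.82 and 8.74 in non-receptive and 9.49, 8.77 and 8.28 in receptive pools. The pools of day 3 were close together (SD 0.22, n = 6) and those of day 7 spread from 7.82, the lowest of all 12 pools, to 9.49, the highest. The difference was 0.52 ± 0.25 (SE, adjusted p = 0.2), with a 95% confidence interval from -0.05 to 1.09. It passed in 1 of 21 alternatives, array weights (adjusted p = 0.0468).

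MYD88 had log2 signals of 8.83, 8.74 and 9.16 in non-receptive and 9.18, 9.22 and 9.0 in receptive pools on day 3, and of 9.52, 9.19 and 9.46 in non-receptive and 9.82, 9.12 and 9.35 in receptive pools on day 7. All 3 non-receptive pools of day 7 lay above those of day 3, and the receptive pools overlapped. The difference of 0.39 ± 0.13 (SE, adjusted p = 0.0813) passed in 3 of 21 alternatives (lowest adjusted p = 0.0261). TLR6, which pairs with TLR2, stayed within the spread between pools, with means of 8.58 ± 0.26 on day 3 and 8.63 ± 0.23 on day 7 (SD, n = 6). Its difference was 0.05 ± 0.12 (SE, adjusted p = 0.828), and the 95% confidence interval from -0.23 to 0.33 leaves out changes of the size found for CD14.

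**Figure D2:**
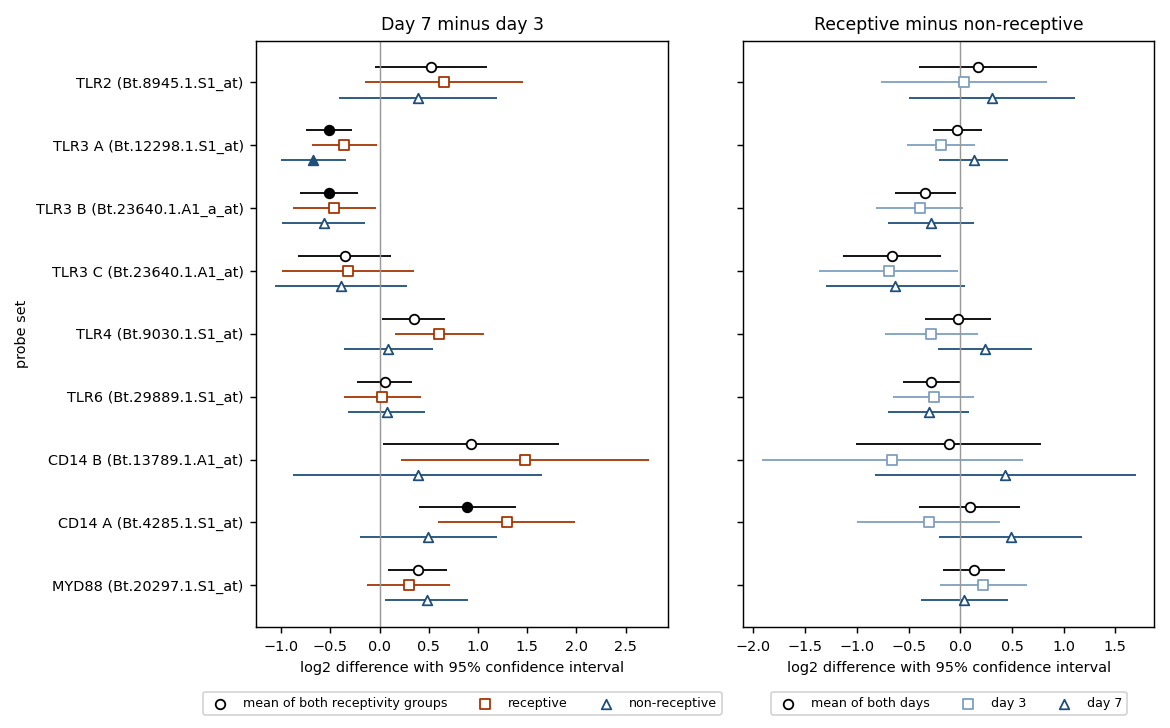
Log2 differences with 95% confidence intervals (x axis) of the 9 probe sets (y axis), for day 7 minus day 3 (left) and receptive minus non-receptive (right), where filled symbols passed the test. The interval of TLR3 (probe set A) for the day ran from -0.75 to -0.28 and that of CD14 (probe set A) from 0.40 to 1.38, and no symbol is filled on the right.

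Within each receptivity group fewer changes passed. In non-receptive endometrium 1 of 9 probe sets was called, TLR3 probe set A with -0.68 ± 0.15 (SE, adjusted p = 0.0482), beside 2.48% of all probe sets (1.66% lower). This call was lost when any 1 of the 12 pools was left out other than pool 1 of receptive day 3, the count then being 0. In receptive endometrium 0 of 9 were called by limma, beside 1.96%, and 5 had an unadjusted p under 0.05, beside 20.4% (3 in non-receptive endometrium, beside 20.5%). The smallest adjusted p there was that of CD14 probe set A (1.29 ± 0.31, SE, adjusted p = 0.0621), which passed in 5 of 22 alternatives, among them without pool 3 of receptive day 7.

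In receptive endometrium the 3 pools of either day did not overlap for 4 of 9 probe sets, beside 25.2% of all (3 higher beside 8.72%, 1 lower beside 16.5%). These were both CD14 probe sets and TLR4, higher on day 7, and TLR3 probe set B, lower. In non-receptive endometrium 3 of 9 did not overlap, beside 25.9% (1 higher beside 10.3%, 2 lower beside 15.6%): MYD88, higher on day 7, and TLR3 probe sets A and B, lower. The test of the difference between both day changes called 0 of 9 probe sets and 0 of all 24016 by limma, with 0 members at an unadjusted p under 0.05, beside 3.39% of all probe sets. The point estimates of the day change were larger in receptive than in non-receptive endometrium for CD14 (1.29 and 0.50 with probe set A, 1.48 and 0.39 with probe set B) and TLR4 (0.61 and 0.09). The 95% confidence intervals of these differences, from -0.19 to 1.77, from -0.70 to 2.88 and from -0.12 to 1.16, include 0.

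The comparison of receptive with non-receptive endometrium asked whether receptor transcripts before transfer differed by the later outcome. Over both days 0 of 9 probe sets were called by limma, beside 0.00416% of all, and 3 had an unadjusted p under 0.05, beside 7.38%. The values of the 2 receptivity groups overlapped for all 9, while 0.237% of all probe sets were without overlap. The 3 with an unadjusted p under 0.05 were lower in receptive pools: the TLR3 probe sets of shared source sequence, probe set C with -0.66 ± 0.21 (SE, adjusted p = 0.646) and probe set B with -0.34 ± 0.13 (SE, adjusted p = 0.665), and TLR6 with -0.28 ± 0.12 (SE, adjusted p = 0.671). TLR3 probe set A was at -0.03 ± 0.10 (SE, adjusted p = 0.95).

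TLR6 had log2 signals of 8.65, 9.0 and 8.46 in non-receptive and 8.22, 8.61 and 8.51 in receptive pools on day 3, and of 8.59, 8.72 and 9.02 in non-receptive and 8.32, 8.51 and 8.59 in receptive pools on day 7. The means were 8.74 ± 0.23 and 8.46 ± 0.16 (SD, n = 6), and the groups overlapped on both days. The log2 signal of the 3' actin control probe set minus that of the 5' one, which is read as a sign of RNA length, also differed between the receptivity groups. This gap was 0.48 to 0.93 in non-receptive and 1.05 to 3.11 in receptive pools on day 3, and 0.02 to 0.63 and 0.82 to 1.25 on day 7. With the gap as a covariate the receptivity difference was -0.33 for TLR3 probe set C, -0.14 for TLR3 probe set B and -0.08 for TLR6, each a move of over 1.5 times. On neither day did the gap overlap between the receptivity groups, so RNA length and receptivity cannot be told apart with this covariate.

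On day 3 alone 0 of 9 probe sets were called between the receptivity groups by limma, beside 0.0125% of all, with 1 at an unadjusted p under 0.05, beside 5.26%. CD14 probe set B was the one probe set whose groups did not overlap, beside 10.8% of all (6.24% lower), with receptive pools lower (8.45 ± 0.22 against 9.11 ± 0.50, SD, n = 3, adjusted p = 0.95). On day 7 its receptive mean was the higher one (9.93 ± 1.08 against 9.49 ± 0.94, SD, n = 3, adjusted p = 0.905). On day 7 alone 0 of 9 were called by limma, as were 0 of all probe sets, with 0 members at an unadjusted p under 0.05, beside 5.81%, and 0 members without overlap, beside 9.23%. The widest 95% confidence interval of the day 7 receptivity difference was that of CD14 probe set B, from -0.83 to 1.70, so that a change of about the size seen between days could not be told from none with 3 pools per group.

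Pools differed within groups in a way that several members shared. Pool 1 of receptive day 7 had the highest signal of all 12 pools for TLR2, TLR4, MYD88 and both CD14 probe sets, and the lowest for TLR3 probe sets B and C. Pool 1 of receptive day 3 was the lowest for TLR4, TLR6 and both CD14 probe sets. The 3 highest pools of TLR4 were the 3 highest of both CD14 probe sets. The share of the sum of squares that lay between pools of the same group was 65.8% for TLR2, 60.1% for TLR6, 56.9% and 31.7% for the CD14 probe sets, 47.7% for TLR4 and 45.5% for MYD88, and 21.2%, 27.4% and 42.6% for TLR3 probe sets A, B and C.

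The genes whose values were most like those of CD14 were genes of myeloid and other leukocytes. Likeness was the root mean square difference between mean-centred log2 signals over the 12 pools, which share day, RNA composition and array, and it was taken over 12677 probe sets. The rule took the probe set with the highest mean of each gene that passed, which is B for CD14 and C for TLR3, and the probe sets that passed, CD14 probe set A and TLR3 probe sets A and B, were added after their values were seen. For CD14 probe set A the closest were TREM1, an activating receptor of neutrophils and monocytes (0.18), SIRPA, an inhibitory receptor of myeloid cells (0.24), and the tetraspanin CD53 of leukocytes (0.27), where the median over all candidates was 0.66. For CD14 probe set B they were TREM1 (0.39), ITGB2, the common beta chain of leukocyte integrins (0.39), and CD53 (0.43). TREM1 rose with CD14 by day 7 (0.94, adjusted p = 0.0361), which follows from its choice by likeness over the same pools. Its log2 signals on day 3 were 4.80, 4.98 and 4.93 in non-receptive and 4.39, 5.0 and 4.17 in receptive pools. On day 7 they were 5.48, 4.97 and 6.07 in non-receptive and 6.38, 5.86 and 5.12 in receptive pools.

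**Figure D3:**
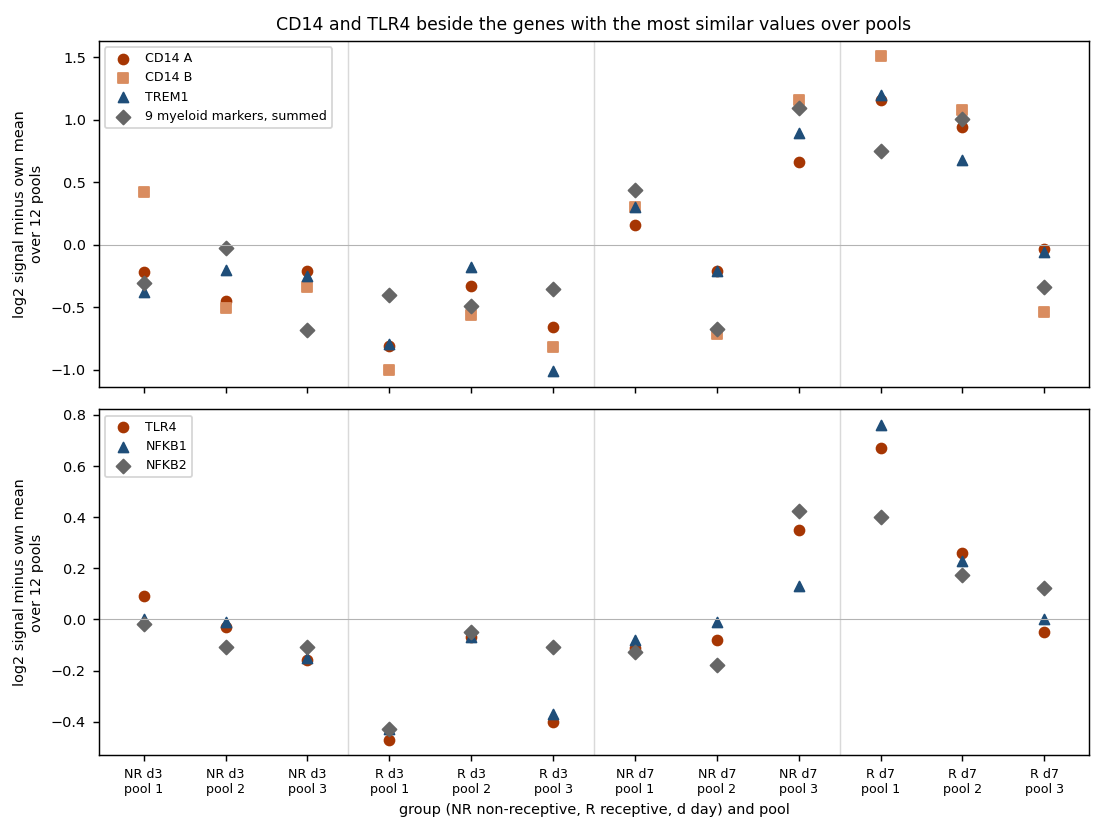
Log2 signal minus the own mean over 12 pools (y axis) in each pool (x axis), for both CD14 probe sets, TREM1 and the sum of 9 myeloid markers (top) and for TLR4, NFKB1 and NFKB2 (bottom). Pools 1 and 2 of receptive day 7 and pool 3 of non-receptive day 7 are the 3 highest pools of each series plotted.

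For TLR3 probe set A the genes most alike were TRIB1, a pseudokinase (0.11), WDR43, a ribosome assembly factor (0.12), and OSGEP, a tRNA-modifying enzyme (0.12), against a median of 0.39 over all candidates. These were picked for likeness over the same pools, so a day change like that of probe set A follows from the choice. All 3 fell by day 7, with log2 differences of -0.53, -0.40 and -0.41 and adjusted p of 0.00453, 0.0134 and 0.00926. For TLR3 probe set B they were RAD9B (0.14), ZNF362 (0.15) and MYLIP (0.15), with differences of -0.43, -0.48 and -0.49, and none of these passed (adjusted p of 0.0712, 0.0513 and 0.0851). Those for TLR3 probe set C were PAEP (0.19), TAGLN3 (0.21) and CCN1 (0.23), and none of these passed between the days. For TLR4, which passed in no comparison and was added after its values were seen, the closest were NFKB1 (0.08), NFKB2 (0.14) and TRAF1 (0.15), against a median of 0.41. NFKB1 and NFKB2 encode subunits of NF-kappa-B, and TRAF1 is an adaptor of TNF receptor signalling. NFKB1 did not pass between the days (0.34, adjusted p = 0.107). The other members that passed in no comparison had close genes as well. For MYD88 these were MOCS1 (0.062), NUS1 (0.094) and MAPK6 (0.11), and for TLR6 they were UACA (0.077), IFIT5 (0.11) and DTX3L (0.12). For TLR2 they were NFKBIZ (0.23), SEC11C (0.24) and DHTKD1 (0.24). By this measure MOCS1 and UACA lay closer to their members than NFKB1 did to TLR4. The measure depends on the spread of the member itself, so values for different members are not on the same scale. That spread over 12 pools was an SD of 0.30 for MYD88, 0.24 for TLR6 and 0.31 for TLR4.

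Among the other receptors and their partners, 1 of 8 measured genes changed by day 7, a share near the 14.2% of all probe sets called. TLR5, the receptor of bacterial flagellin, fell from 4.93 ± 0.32 to 4.06 ± 0.39 (SD, n = 6), a log2 difference of -0.87 ± 0.18 (SE, adjusted p = 0.0137). With the actin gap as a covariate it was -0.72 and did not pass (adjusted p = 0.0597). Its values were 4.88, 5.34 and 4.83 in non-receptive and 5.20, 4.44 and 4.88 in receptive pools on day 3, and 3.85, 4.61 and 4.47 in non-receptive and 3.96, 3.58 and 3.91 in receptive pools on day 7, with an overlap of 1 pool of day 3 and 2 of day 7. The median of the list was -0.07, beside -0.05 over all probe sets. TLR9, the endosomal DNA receptor, was at 0.09 (adjusted p = 0.4).

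Of 20 measured signalling adaptors, kinases and ubiquitin ligases 0 passed by limma, and 3 had an unadjusted p under 0.05, beside 30.8% of all probe sets. TICAM1, the adaptor of TLR3, was not measured, as no probe set carries its name alone. The same holds for TIRAP, IRAK2, MAP3K7, TBK1 and PELI2. The smallest p belonged to CHUK, an I-kappa-B kinase (-0.26 ± 0.09, SE, adjusted p = 0.0517), and to TAB1, a partner of the kinase MAP3K7 (0.38 ± 0.13, SE, adjusted p = 0.0561), and both did not pass. In the alternatives CHUK passed in 6 and TAB1 in 9 of 21. Of 9 measured transcription factors 1 rose and 1 fell, beside 4.76% and 9.44% of all probe sets, and RELB, REL and IRF1 were not measured. IRF5, which drives inflammatory cytokines downstream of MYD88, rose by 0.66 (adjusted p = 0.0139), from 6.76 ± 0.18 to 7.42 ± 0.28 (SD, n = 6), with pools of day 3 between 6.52 and 6.97 and pools of day 7 between 7.09 and 7.91. With the actin gap as a covariate its difference of 0.62 did not pass (adjusted p = 0.0517). Another IRF5 probe set passed (0.38, adjusted p = 0.024), and a further one did not (0.67, adjusted p = 0.104). JUN, a subunit of AP-1, fell from 11.06 ± 0.17 to 10.17 ± 0.21 (adjusted p = 0.00266), also without overlap, and 4 of its 5 probe sets passed.

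Of 10 measured inhibitors of the pathway 1 rose and 0 fell, beside 4.76% and 9.44% of all probe sets. IRAK3, TNFAIP3, SARM1 and SOCS1 were not measured. TNIP1, which restrains NF-kappa-B, had a log2 difference of 0.50 ± 0.13 (SE, adjusted p = 0.0308), and its call was kept in 12 of 21 alternatives (highest adjusted p = 0.102). Its other probe sets, with 1.03 (adjusted p = 0.195) and 0.35 (adjusted p = 0.305), did not pass.

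Of 19 measured cytokines and effectors induced by the receptors 3 rose and 1 fell, beside 4.76% and 9.44% of all probe sets. The median change of the list was 0.59, with 16 positive, beside -0.05 and 43.4% positive over all probe sets. These counts include IL6, IL12B and IFNB1, which each had at least 1 pool at the floor of 0. The monocyte chemokine CCL2 rose by 3.73 ± 0.46 (SE), with pools of day 3 between 5.73 and 6.07 and pools of day 7 between 7.68 and 10.92 (adjusted p = 0.00241). The neutrophil chemokine CXCL8 had a mean of 6.03 ± 0.59 on day 3 and rose to 9.07 ± 1.61 on day 7 (SD, n = 6, adjusted p = 0.0155), and its highest value, 12.09, was again in pool 1 of receptive day 7. CXCL2, also a neutrophil attractant, rose by 1.1 (adjusted p = 0.00537). CXCL10, which is induced by interferon and attracts T cells, fell from 7.93 ± 0.28 to 6.76 ± 0.61 (SD, n = 6, adjusted p = 0.0143), with pool 1 of receptive day 7 at 7.95, within the range of day 3, and with the actin gap as a covariate its difference of -1.06 did not pass (adjusted p = 0.0581). In the receptivity comparison over both days 0 of these 66 pathway genes passed by limma, beside 0.00416% of all probe sets. Of the 66 genes 1 had an unadjusted p under 0.05, beside 7.38% of all probe sets.

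**Figure D4:**
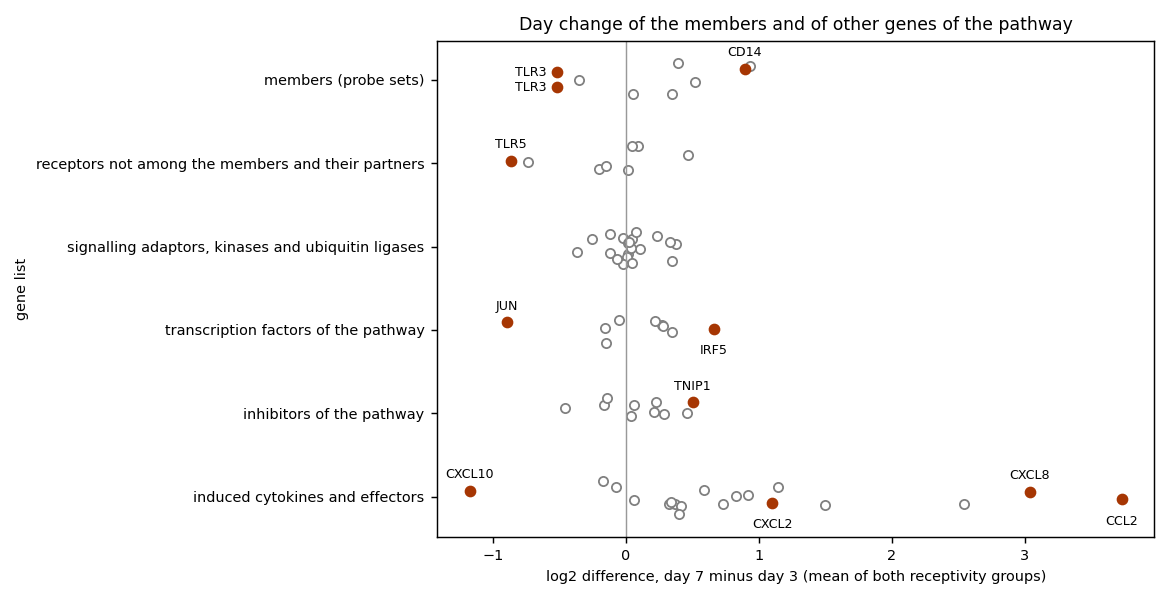
Log2 difference between day 7 and day 3 (x axis, mean of both receptivity groups) of the 9 member probe sets and of the measured genes of 5 pathway lists (rows), where filled points passed the test and are named. The signalling genes lie between -0.37 and 0.38 and 0 of them passed, while CCL2 at 3.73 and CXCL8 at 3.04 lie farthest to the right.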

How the data were processed

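Each of 12 arrays was hybridised with 1 RNA pool. The deposited table, which the authors made, holds log2 signals for 24128 probe sets. According to the processing notes of the submitters, Affymetrix Expression Console, PLIER and GCOS 1.1.1 were used, without role or order. How arrays were scaled is unstated there, and the number of arrays limits the precision. After removal of 112 control probe sets, 24016 were tested. Of these 13292 carried 1 gene symbol in the platform annotation, 86 several and 10638 none; no gene was named from several.

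The 4 group means were estimated with limma 3.58.1 (lmFit, eBayes, R 4.3.3), without filter, further normalization or pool number. The 7 contrasts were two-sided, with Benjamini-Hochberg adjustment over all probe sets and a threshold of 0.05. The fit was tested on simulated data. The members and gene lists were chosen with earlier results of these data known. All probe sets of the members were described. From each pathway list, represented by 1 probe set per gene with the highest mean signal, up to 4 genes that passed the averaged day contrast were named, or 2 where none passed. The 3 genes most like a member had the smallest root mean square difference of mean-centred values over 12 pools, among probe sets with 1 symbol and no value at 0. The alternatives were other scalings, filters, weights and variance priors, a pool number block, a covariate and each pool left out.

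Figures were drawn with matplotlib 3.10.9.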

Additional observations from a re-analysis of the deposited data

How the results depend on the processing

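Over both receptivity groups, 3 member probe sets were called between the days, 5 with array weights (TLR2 and MYD88 in addition) and between 1 and 4 with 1 pool left out. Within non-receptive endometrium the main count of 1 became 0 after median centring, with the pool number as a block and with only the compared arrays, and 3 with array weights. With 1 pool left out it was 0 to 1. Within receptive endometrium the count of 0 became 1 without probe sets of a mean under 5, with an offset of 16 on the linear scale, with a trended, robust variance prior and with array weights, and was 0 to 1 with 1 pool left out, each time through CD14. In the receptivity comparisons and the interaction 0 members were called in all alternatives run. The cause of these moves was not tested. The alternatives for the pathway genes and lists were added after seeing the data. There the count called was between 0 and 3 for signalling genes, 0 and 2 for inhibitors and 3 and 8 for induced cytokines, against 0, 1 and 4. The filter on low signal removed TLR5.

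Over all groups, the deviations of same-numbered pools correlated between -0.18 and 0.14 (18 pairs), against -0.15 and 0.15 for other pairs. By the mean over groups, 5 of 12 pools correlated best with their own number. Most of these pairs joined a receptive with a non-receptive pool, so they cannot show whether day 3 and day 7 pools share animals. That was not tested. With the block 2 members were called between the days over both groups, CD14 being lost.

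Small differences that had not passed turned sign. The day difference of TLR6 was -0.075 with the actin covariate and -0.011 to 0.12 with 1 pool left out. The receptivity difference of TLR3 probe set A was 0.0067 after quantile normalization, 0.20 with the actin covariate and -0.074 to 0.036 with 1 pool left out. That of TLR2 was -0.035 with array weights, -0.13 with the covariate and -0.011 to 0.31 with 1 pool left out. That of TLR4 was 0.047 with the covariate and -0.11 to 0.066 with 1 pool left out. Those of CD14 were -0.35 to 0.19 (probe set B) and -0.028 to 0.27 (probe set A) with 1 pool left out.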
